A study of Rattus norvegicus with 4 samples.

Results

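The neurexins, the neuroligins and the neurexin ligand neurexophilin 1 were represented by 8 probe sets for 6 genes, out of 1322 probe sets on an Affymetrix array made for neurobiology, on which 720 genes had a probe set with a symbol of their own. They were all the probe sets whose symbol in the platform annotation is Nxph1, Nrxn2, Nrxn3, Nlgn1, Nlgn2 or Nlgn3. A probe set is a group of short oligonucleotides on the array that together report the transcripts of a gene, and its value is an intensity in arbitrary units. Nrxn2 had 3 probe sets and the other genes had 1 each. RNA came from cortical neurons of rat embryos at day 17, grown for 14 days in Neurobasal medium with B27 supplement. The tested cultures received 25 mM KCl for 4 h and the controls received phosphate-buffered saline for 4 h, with 2 arrays per group (KCl 1 and KCl 2, control 1 and control 2). The groups were taken from the titles and treatment protocols, since the description gives the KCl arrays the same non-activated state as the controls. The labels give no rat strain and do not state whether replicate arrays carried RNA of separate cultures. The p-values therefore reflect the scatter among these arrays only, which may be technical.

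Neurexins are presynaptic membrane proteins whose extracellular domains reach across the synaptic cleft. Neuroligins are their postsynaptic partners, and their intracellular tails bind scaffold proteins of the Dlg family. Neuroligin 1 is found mainly at excitatory synapses, neuroligin 2 mainly at inhibitory synapses and neuroligin 3 at both kinds. Neurexophilins are secreted glycoproteins that bind tightly to α-neurexins, and in rodent brain neurexophilin 1 is made largely by inhibitory interneurons. High potassium outside the cell depolarizes neurons and lets calcium enter through voltage-gated channels, and the study used it to find genes that respond to depolarization.

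The gene with the largest change among these was Nxph1, and the stretch of genome just before its annotated start is shown. Whether this stretch regulates the gene was not tested. It is the 250 bases upstream of the Nxph1 start in the RefSeq annotation of rat build GRCr8, chr4:37964075-37964324 on the plus strand, written 5′ to 3′.
Nxph1 upstream: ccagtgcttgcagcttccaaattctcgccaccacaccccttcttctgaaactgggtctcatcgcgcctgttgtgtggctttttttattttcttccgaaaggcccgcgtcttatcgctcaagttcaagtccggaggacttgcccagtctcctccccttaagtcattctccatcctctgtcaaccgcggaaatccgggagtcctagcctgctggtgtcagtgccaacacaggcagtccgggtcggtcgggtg
A search of the 300-base window that also holds the 50 bases after the start looked for the cyclic AMP response element half-site TGACG, the AP-1 site TGANTCA, the NR4A site AAAGGTCA and the EGR site GCGNGGGCG on both strands, where N is any base. None of these letters occurred in the Nxph1 window, so no base is printed in capitals. Of 33465 rat promoter windows of the same length, 21.2% held the half-site, 7.33% the AP-1 site, 1.43% the NR4A site and 4.98% the EGR site. The table of promoters also held windows for Nlgn1, Nlgn2 and Nlgn3, which had no match to these motifs either. It held no window for Nrxn2 or Nrxn3, so these genes were not searched. The absence of a match says only that these letters are not in the windows searched.

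Of the 8 probe sets, 6 were bright enough to be tested, and 2 of these fell after KCl, the single probe set of Nxph1 and the brightest of Nrxn2. None of the 6 rose. Over the 947 probe sets tested, 10.8% passed at a limma adjusted p below 0.05, 5.28% lower and 5.49% higher. Log2 changes were below 0 for 5 of the 6, against 60.3% of all tested probe sets. At an unadjusted p below 0.05, 3 of the 6 were lower, against 16.3% of all tested probe sets. The groups did not overlap in 5 of the 8 probe sets, where 52.6% of all 1263 probe sets, dim ones included, separated the groups in the same way. An exact permutation test over 4 arrays cannot give a two-sided p below 0.33, so each call rests on variances that limma shares across probe sets.

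**Figure D1:**
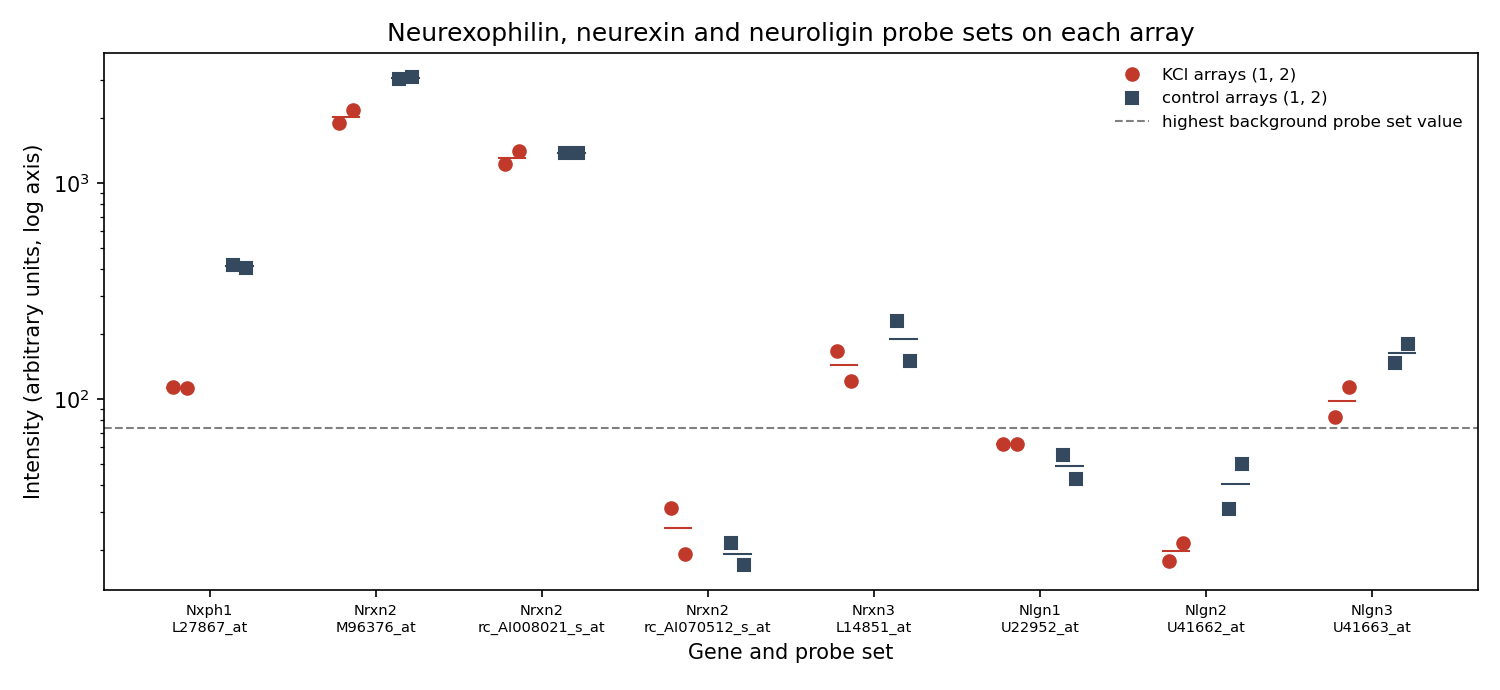
Intensity of each probe set on the 4 arrays, on a log axis in arbitrary units, with KCl arrays as circles left of control arrays as squares, replicate 1 left of replicate 2, and short lines for the group means. The dashed line is 73.7, the highest value of 19 background probe sets. The KCl values of Nxph1 lie near 113 and its control values near 411, while 3 probe sets lie below the line on every array.

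Background was taken from 19 control probe sets made for transcripts of bacteria and yeast. Their median intensity was 9.05 and their highest 73.7. On all 4 arrays 5 of the 8 probe sets exceeded 73.7, and 3 lay within background on all 4, those of Nlgn1, Nlgn2 and the dimmest of Nrxn2. Intensities of different probe sets depend on their oligonucleotides, so levels are compared here only between arrays and not between genes.

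Nxph1 fell to 27.5% of its control level. Its probe set, L27867_at, read 114.2 and 112.2 in the KCl cultures, against 419.9 and 402.8 in the controls. Both KCl values lay far below both control values and above all background values. The means were 113 ± 1.41 after KCl and 411 ± 12.1 in controls (SD, n = 2 arrays each). The level after KCl was 3.63-fold lower, with a 95% confidence interval of 2.72-fold to 4.85-fold. The log2 change was −1.86 ± 0.18 (SE; limma adjusted p = 0.00038), which ranked 8 of 947 counted from the lowest. The replicates agreed closely, with a KCl 1 to KCl 2 ratio of 1.02 and a control 1 to control 2 ratio of 1.04. The 4 values alone gave a standard error of 0.03, and the larger 0.18 comes from the spread of other probe sets of similar intensity. Without control 1 or without control 2 the fall kept its size, with log2 changes of −1.83 and −1.89, and no longer passed, at limma adjusted p-values of 0.070 for each.

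The probe sets with the pattern most like Nxph1 across the 4 arrays were those of Slc32a1, the vesicular GABA transporter gene, Sst, the somatostatin gene, and Gad1, a gene of GABA synthesis. Likeness was the root mean square difference of the 4 log2 values, each centred on its own mean. It was taken over 847 tested probe sets with 1 symbol, those of neurexophilin 1, the neurexins and the neuroligins left out. It was 0.165 for Slc32a1, 0.174 for Sst and 0.187 for Gad1. Slc32a1 read 514.6 and 600.6 after KCl, against 1683.2 and 1646.1 in controls. Sst read 1712.4 and 1950.6 after KCl, against 5491.2 and 5199.1 in controls. Gad1 read 252.9 and 345.5 after KCl, against 1116.7 and 931.0 in controls. These genes were thus low on both KCl arrays, as Nxph1 was. With 4 arrays in 2 groups, this likeness mostly describes the size of the change and carries no p.

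Slc32a1, Sst and Gad1 also belong to a list of inhibitory neuron markers, of which 9 genes were tested through their brightest probe set. The list was chosen with earlier results of these data known, so its counts are descriptive and were not tested for enrichment. Among the 9, 4 fell and none rose, against 5.09% called lower and 5.09% called higher among all 570 genes. The fourth was Kcnc2, a Kv3 potassium channel gene of fast-spiking neurons, whose KCl values of 37.2 and 51.5 lay within background, against 222.1 and 149.2 in controls. Without control 1, and likewise without control 2, Sst alone passed, without the intensity trend Slc32a1 and Sst passed, and with the replicate block Kcnc2 did not. The 5 others did not pass and differed in direction. Kcnc1 had a log2 change of −0.49 ± 0.35 and Tac1 one of −0.18 ± 0.16. Npy had 0.23 ± 0.16, Cck 0.11 ± 0.10 and Crh 0.79 ± 0.63. The intensities of the 9 summed to 10826 and 11534 after KCl, against 16305 and 16005 in controls, and their median log2 change was −0.49, against −0.09 over all genes. That sum mostly follows its brightest probe sets, those of Cck and Sst. Cck read 7002.8 and 7027.9 after KCl, against 6310.8 and 6729.1 in controls. The Crh probe set lay within background on all 4 arrays. The part of these markers in the fall of Nxph1 was not tested. In RNA from a whole culture, fewer cells of a type and less RNA per cell cannot be told apart.

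Nrxn2, which encodes neurexin 2, gave different readings from its 3 probe sets. The brightest, M96376_at, read 1895.4 and 2167.4 after KCl, against 3028.1 and 3083.6 in controls. Both KCl values lay below both control values. The means were 2031 ± 192 after KCl and 3056 ± 39.2 in controls (SD, n = 2 arrays each). This reading fell 1.51-fold, with a 95% interval of 1.26-fold to 1.80-fold, which is −0.59 ± 0.11 in log2 (SE; limma adjusted p = 0.011). The call was lost without control 1 (limma adjusted p = 0.18), without control 2 (limma adjusted p = 0.22) and when the variance was not allowed to follow intensity (limma adjusted p = 0.15).

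The second Nrxn2 probe set, rc_AI008021_s_at, read 1224.9 and 1401.5 after KCl, against 1375.4 and 1376.0 in controls. The KCl values lay on either side of the controls. Its log2 change was −0.07 ± 0.12, with a 95% interval of −0.34 to 0.20 (limma adjusted p = 0.75), and its sign turned without KCl 1, to 0.03. The third probe set, rc_AI070512_s_at, read 31.2 and 19.2 after KCl, against 21.6 and 17.0 in controls. It lay within background on every array, was removed as dim, and gives no fold. The annotation gives all 3 probe sets the symbol Nrxn2 and does not say which neurexin 2 transcripts, long α or short β forms, each one reports.

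The difference between the first pair of Nrxn2 probe sets was read within each array, where a difference in overall brightness cancels. The ratio of M96376_at to rc_AI008021_s_at was 1.55 and 1.55 on the KCl arrays, against 2.20 and 2.24 on the control arrays. The ratio was thus lower on both KCl arrays, and the arrays of a group gave nearly the same ratio. The log2 ratio averaged 0.63 after KCl and 1.15 in controls, a difference of −0.52 (two-sided exact permutation p = 0.33, the smallest that 4 arrays can give). With 1 array left out in turn the difference ran from −0.53 to −0.51.

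The probe sets most like M96376_at across the arrays belonged to Kcnh2, an ERG potassium channel gene, Itpka, which encodes a kinase of inositol trisphosphate, and Dlg3, which encodes the scaffold protein SAP102. Their root mean square differences in log2 were 0.0311, 0.0363 and 0.0388. Itpka read 523.2 and 575.3 after KCl, against 862.1 and 841.2 in controls, and fell with a log2 change of −0.63 ± 0.13 (limma adjusted p = 0.016). That call was lost without control 1 (limma adjusted p = 0.21) and without control 2 (limma adjusted p = 0.22). Kcnh2 read 191.4 and 216.5 after KCl, against 290.2 and 298.5 in controls, with a log2 change of −0.53 ± 0.18 that did not pass (limma adjusted p = 0.10).

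Nrxn3, which encodes neurexin 3, did not pass on its probe set L14851_at. It read 167.6 and 121.0 after KCl, against 230.7 and 150.6 in controls. The groups overlapped, since KCl 1 lay above control 2, and in each group replicate 1 was the brighter array, 1.39 times KCl 2 and 1.53 times control 2. The log2 change was −0.39 ± 0.28, with a 95% interval of −1.03 to 0.25 (limma adjusted p = 0.43). That interval includes both a fall as large as that of Nrxn2 M96376_at and no change. The log2 change was −0.62 without KCl 1, −0.15 without KCl 2, −0.08 without control 1 and −0.70 without control 2, so its size moved with each array left out.

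Among the postsynaptic partners, Nlgn3, the neuroligin 3 gene, had the clearest lower values and did not pass. Its probe set U41663_at read 82.5 and 114.3 after KCl, against 146.7 and 180.8 in controls. All 4 values exceeded background and the groups did not overlap, although 82.5 lay close to 73.7. The means were 98.4 ± 22.5 after KCl and 164 ± 24.1 in controls (SD, n = 2 arrays each), a ratio of 0.596. The log2 change was −0.75 ± 0.27, with a 95% interval of −1.37 to −0.12 (limma unadjusted p = 0.025, adjusted p = 0.13). Without KCl 2 it passed, with a log2 change of −0.98 (limma adjusted p = 0.028), and without KCl 1 it had −0.51 (limma adjusted p = 0.39).

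Nlgn1, the neuroligin 1 gene, read 61.9 and 61.8 on U22952_at after KCl, against 55.3 and 42.5 in controls. The KCl values were the higher pair, but all 4 lay within background, so no fold is given. The probe set passed the filter on dim values and had a limma adjusted p of 0.65. Nlgn2, the neuroligin 2 gene, read 17.9 and 21.7 on U41662_at after KCl, against 31 and 50 in controls. Both KCl values were the lower pair, again within background on every array. It was removed as dim, and in the fit that kept dim probe sets it had a limma adjusted p of 0.28. A change of these 2 neuroligins was not detectable at these intensities, which does not show that they stayed the same.

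**Figure D2:**
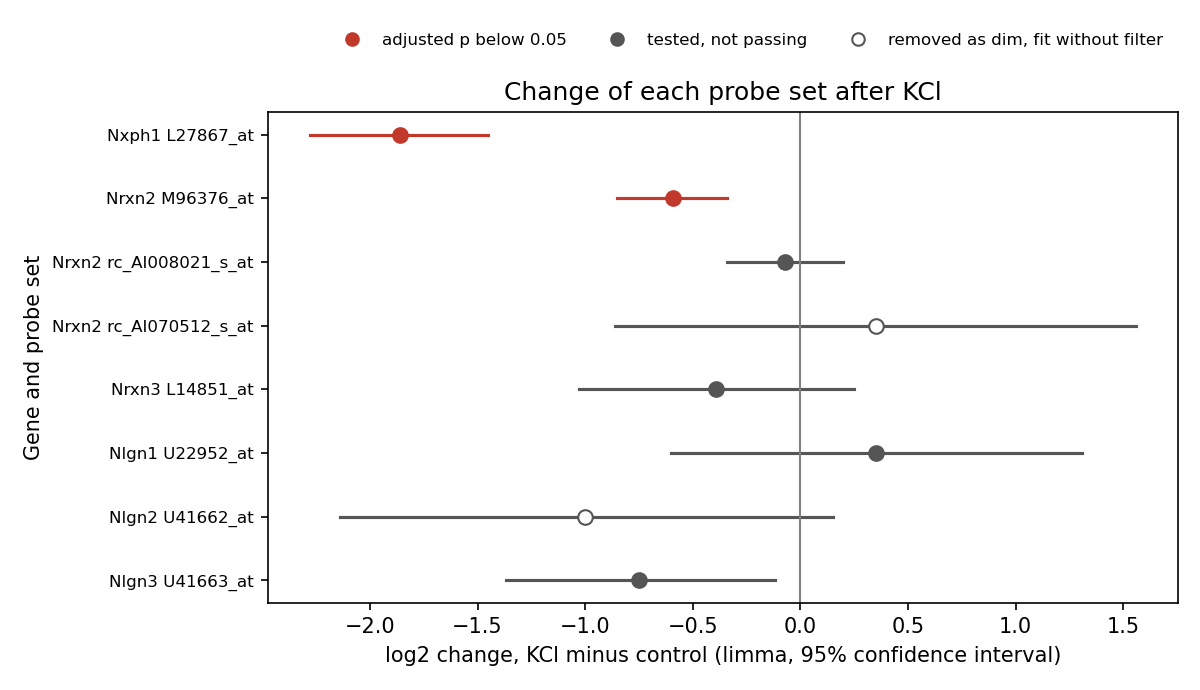
Log2 change of each probe set, KCl minus control, with its 95% confidence interval from limma. Red points passed at an adjusted p below 0.05, grey points were tested and did not pass, and open points were removed as dim and come from the fit that kept dim probe sets. The interval of Nxph1 runs from −2.28 to −1.45 and that of Nrxn2 M96376_at from −0.85 to −0.34, and the dim probe sets have the widest intervals.

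The probe sets of Nxph1 and Nrxn2 M96376_at thus lay among the falls of the whole array at different intensities. Counted from the lowest of 947 log2 changes, Nxph1 ranked 8, Nlgn3 78, Nrxn2 M96376_at 131, Nrxn3 218 and Nrxn2 rc_AI008021_s_at 500. Counted from the smallest p, Nxph1 ranked 13, Nrxn2 M96376_at 51 and Nlgn3 178. Nlgn3 had the larger change of the last pair and the larger p, because its standard error was 0.27 against 0.11.

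**Figure D3:**
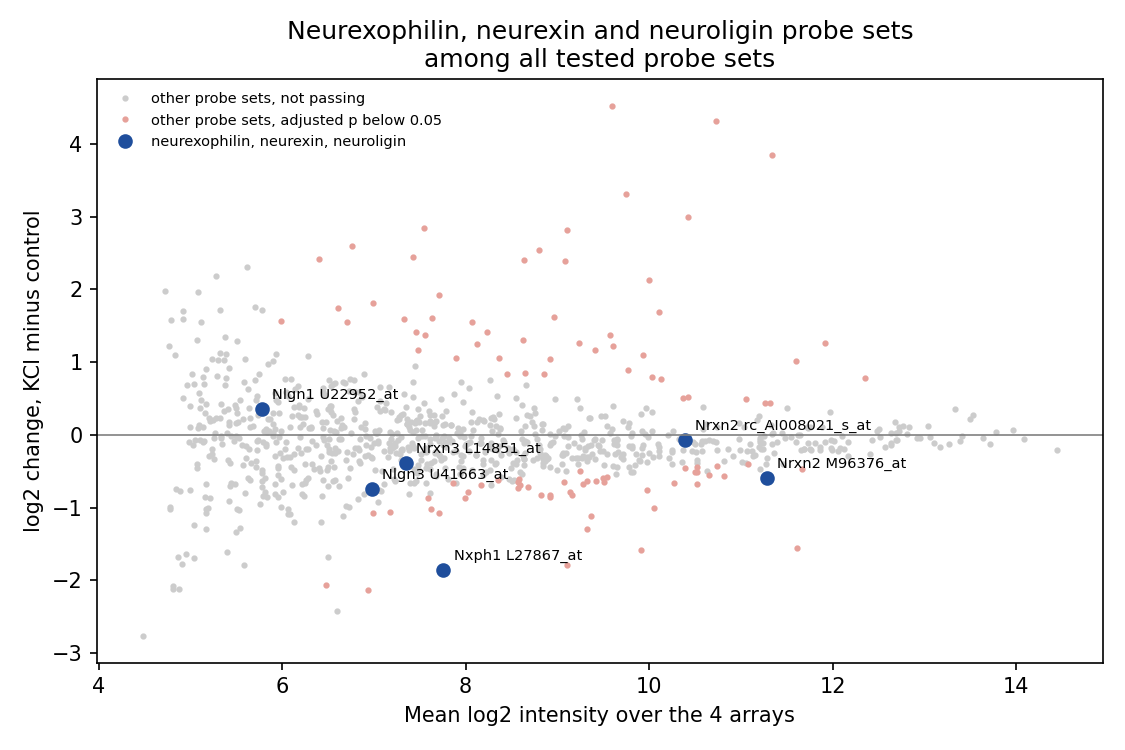
Log2 change, KCl minus control, against the mean log2 intensity of the 4 arrays for the 947 probe sets tested. Blue points are the 6 tested probe sets of Nxph1, Nrxn2, Nrxn3, Nlgn1 and Nlgn3, and the pale red points are other probe sets with an adjusted p below 0.05. Nxph1, at −1.86, sits below nearly all probe sets, while Nrxn2 rc_AI008021_s_at, at −0.07, sits near 0.

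Relatives of neurexophilin 1 and scaffold proteins that bind neuroligins or the Dlg scaffolds did not pass. From a list of 53 such genes, 5 were on the array and tested, Nxph3, Nxph4, Dlg3, Dlg4 and Dlgap4. Of the 5, 0 passed in limma. The unadjusted limma p was below 0.05 for 1 of the 5, against 145 of all 570 genes. With an ordinary t statistic it was below 0.05 for 2 of the 5, against 157 of the 947 probe sets. Their median log2 change was −0.23, against −0.09 over all 570 genes. Nxph3, Nxph4 and Dlgap4 were chosen for naming after their values were seen. Nxph3 read 97.9 and 129.5 after KCl, against 141.3 and 138.9 in controls, with a log2 change of −0.32 ± 0.26. Nxph4 read 167.5 and 192.9 after KCl, against 175.7 and 167.0 in controls, with 0.07 ± 0.21. The 3 neurexophilin genes on the array therefore had different estimates, although only Nxph1 passed and the differences between them were not tested.

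Dlg3 had the lowest p of the scaffold genes. It read 130.3 and 145.3 after KCl, against 218.4 and 216.4 in controls, with groups that did not overlap and a log2 change of −0.66 ± 0.20 (limma adjusted p = 0.080). It passed as lower without KCl 2 (limma adjusted p = 0.049). Dlg4, which encodes PSD-95, read 1163.1 and 1087.5 after KCl, against 1318.2 and 1324.8 in controls, with −0.23 ± 0.11 (limma adjusted p = 0.24). Dlgap4, which encodes a protein that binds the Dlg scaffolds, had log2 changes of −0.01 ± 0.18 and 0.02 ± 0.19 on its 2 probe sets.

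Among other adhesion molecules of neurons and their matrix, 3 of 15 tested genes passed, 1 higher (6.67%) and 2 lower (13.3%), against 5.09% called in each direction among all 570 genes. Their median log2 change was −0.23, against −0.09 over all genes. Sdc3, the gene of the heparan sulfate proteoglycan syndecan 3, read 547.1 and 482.9 after KCl, against 748.1 and 854.8 in controls, and fell with a log2 change of −0.64 ± 0.14 (limma adjusted p = 0.024). Agrn, which encodes agrin, an organizer of the neuromuscular junction, read 1432.0 and 1508.8 after KCl, against 2028.7 and 1937.3 in controls, and fell with −0.43 ± 0.11 (limma adjusted p = 0.038). A dimmer Agrn probe set, M64780_g_at, had −0.39 ± 0.11 and did not pass (limma adjusted p = 0.059). Bcan, which encodes brevican, a proteoglycan of the perineuronal matrix, rose, at 646.5 and 447.6 after KCl against 280.1 and 316.6 in controls. Its log2 change was 0.85 ± 0.20 (limma adjusted p = 0.029). All 3 calls were lost without control 1, without control 2, with quantile normalization, with the replicate number as a block, and without the intensity trend. With dim probe sets kept, and without KCl 1, only Sdc3 of the 3 passed, and centring on the median ended the call of Bcan alone. Without KCl 2, Lsamp, the gene of limbic system-associated membrane protein, passed as higher too. L1cam and Ncam1, which encode immunoglobulin-type adhesion molecules of axons and synapses and were named after their values were seen, had log2 changes of −0.00 ± 0.10 and 0.16 ± 0.13 and did not pass.

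**Figure D4:**
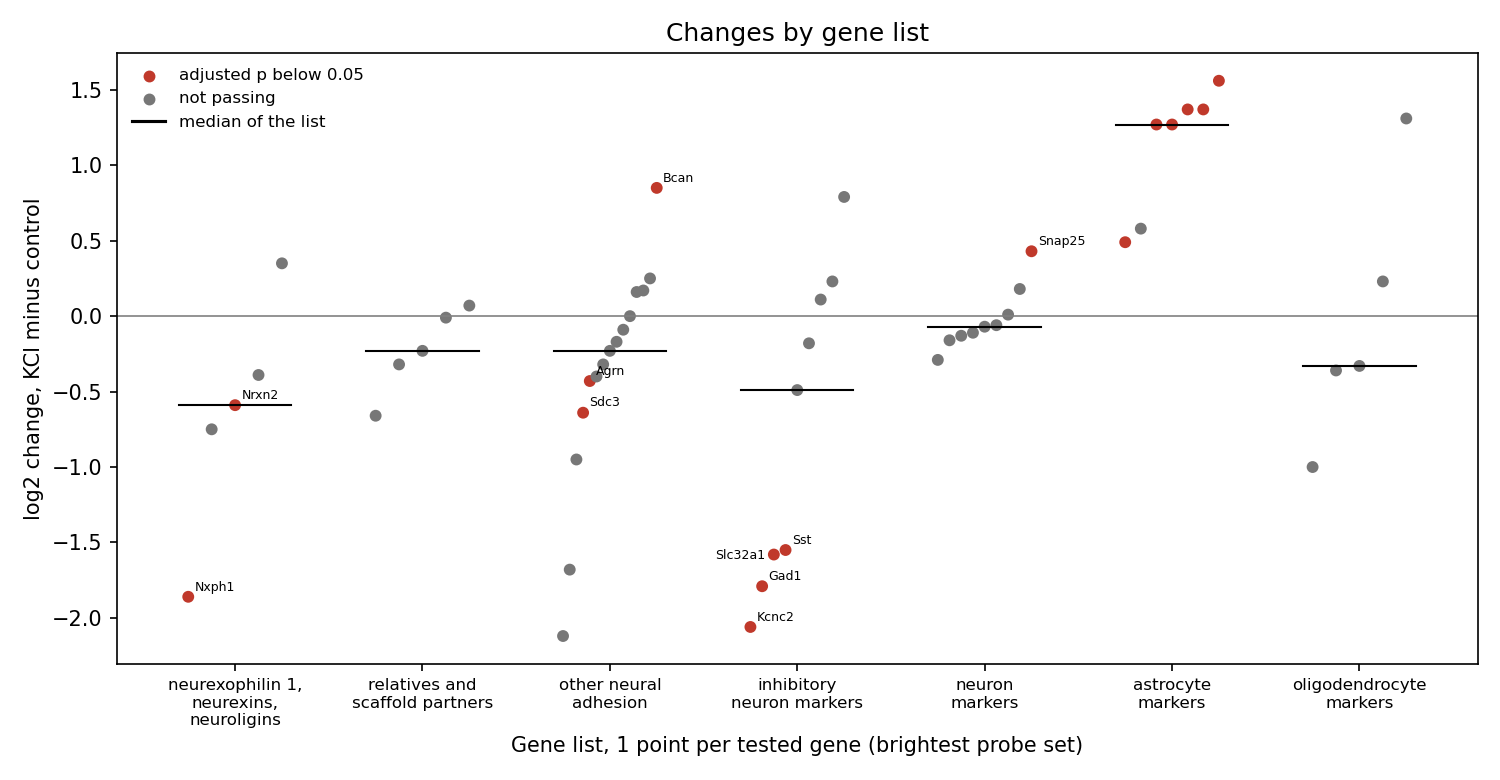
Log2 change, KCl minus control, of each tested gene through its brightest probe set, by gene list, with red points for an adjusted p below 0.05 and a black line for the median of the list. The median of the neurexophilin, neurexin and neuroligin genes is −0.59, that of relatives and scaffold partners −0.23, and that of the inhibitory neuron markers −0.49. The 6 red points of the astrocyte markers carry no names.

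The arrays correlated with r = 0.97 within each group and 0.93 to 0.94 between groups, across the log2 intensities of tested probe sets, which are not independent replicates. All 5 activity-regulated genes used as a check of the treatment (Fos, Junb, Nr4a1, Egr1 and Bdnf) rose, and without control 1, without control 2 or without the intensity trend all but Egr1 did. Of 9 neuron markers 1 rose (Snap25) and none fell, against 5.09% called in each direction among all 570 genes. The summed intensity of the 9 was 30836 and 31445 after KCl, against 32421 and 33721 in controls. Snap25 passed through its brightest probe set. Its others, AB003991_g_at, AB003992_s_at and U56261_s_at, did not pass (limma adjusted p = 0.19, 0.41 and 0.17). The call of Snap25 was lost without control 1, without control 2, with the replicate block, without the intensity trend and with dim probe sets kept, and with quantile normalization Syp passed as lower. The intensities of 7 astrocyte markers summed to 12551 and 9974 after KCl, against 5484 and 5220 in controls, with Apoe the brightest on every array. Of the 7, 6 rose, none fell and 1 lay within background on all arrays. These calls were lost without control 1, without control 2 and without the intensity trend. Of the 6, 4 held without KCl 1, with quantile normalization or with dim probe sets kept, and 3 held with the replicate number as a block or with centring on the median. Of the 5 oligodendrocyte, 2 microglia, 1 endothelial and fibroblast and 1 excitatory neuron markers tested, 0 passed in limma. Vcam1 alone had an unadjusted p below 0.05, both in limma and with an ordinary t statistic. In limma 145 of all 570 genes had such a p. Hexokinase control probe sets had a 3′ to 5′ signal ratio of 2.49 and 2.67 on the KCl arrays, against 2.25 and 2.00 on the controls, while those of Gapdh (1.17 to 1.23) and β-actin (1.08 to 1.12) overlapped between groups. The part of the astrocyte markers and of the hexokinase ratio in the changes of Nxph1, Nrxn2 and Bcan was not tested.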

How the data were processed

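Per the labels' protocols, biotin-labelled cRNA from 5 µg of total RNA was hybridized to 1-colour Affymetrix arrays. Each deposited value is a probe set's intensity, linear and in arbitrary units. The sources used here do not say how probes were summarised and scaled. The 2% trimmed means of the arrays, 502.0 to 502.4, show that they share one level, so the values were taken to log2 as deposited. Without the 59 Affymetrix control probe sets, the dimmest 25% of the other 1263 by mean over the 4 arrays (316 probe sets) were removed as dim, which left 947. Of the 1263, the platform annotation gave 1 symbol to 1137, several to 8 and none to 118. Probe sets are named by that annotation, and no genome position is given for them.

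KCl was compared with control by limma 3.58.1 in R 4.3.3 (lmFit, and eBayes with an intensity trend), two-sided, with Benjamini-Hochberg adjustment over the 947, called below 0.05. Errors of log2 changes are moderated standard errors. Precision is limited by the number of arrays. The median SE was 0.21, and no log2 change smaller than 0.40 in size was called. Genes and lists were chosen with earlier results of these data known, and each gene entered its list through its brightest probe set. From the lists of scaffold partners and other adhesion genes, the genes that passed were named, or the 2 with the smallest p. Added to these were genes said to be chosen later or to pass in an alternative fit. Every tested inhibitory neuron marker and activity-regulated gene was named. The other marker lists are given mostly as counts, with few of their genes named. The 3 probe sets nearest in pattern to each called one were also named. Alternatives were quantile normalization, scaling, centring, a pseudocount of 16, other filters, a replicate block, arrays left out, other variance models and 1 probe set per gene. Replicate numbers in the titles do not pair the arrays by any label. Deviations of same-numbered arrays from their group means correlated at r = −0.03 over 947 probe sets.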

Additional observations from a re-analysis of the deposited data

How the results depend on the processing

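The direction of Nxph1, Nrxn2 M96376_at, Nrxn3 and Nlgn3 was the same in every alternative that gave them a value. Nxph1 passed in 11 of 14, with limma adjusted p-values from 6.4e-13 to 0.070 over the moderated fits. With an ordinary t statistic its log2 change of −1.86 had an adjusted p of 0.059, and with 1 array left out the change ran from −1.89 to −1.83. Nrxn2 M96376_at passed in 10 of 14, did not pass with an ordinary t statistic (−0.59, adjusted p = 0.29) or without the intensity trend (−0.59), and ran from −0.69 to −0.50 with 1 array left out. Nrxn2 rc_AI008021_s_at ran from −0.17 to 0.03 and Nlgn3 from −0.98 to −0.51 with 1 array left out. Of the 8 probe sets, 0 passed with an ordinary t statistic (2 had an unadjusted p below 0.05) and 1 without the trend, and with 1 array left out 0 to 3 passed.

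Over all probe sets, 102 passed, 52 higher and 50 lower. With 1 probe set per gene 58 passed of 570 (29 higher, 29 lower), with an ordinary t statistic 0 (0 and 0, with 157 at an unadjusted p below 0.05), and without the trend 21 (18 and 3). The lower calls numbered 33 with dim probe sets kept and 31 with quantile normalization. With 1 array left out the counts ran from 11 to 178 in all, 10 to 72 higher and 1 to 106 lower. Fewest passed without a control array, where the KCl pair alone gave the spread. With the replicate block 50 passed (15 lower), Nxph1 with limma adjusted p = 0.0088 and Nrxn2 M96376_at with 0.0499, and it ended the calls of the 3 other adhesion genes. The inhibitory neuron markers that fell numbered 0 to 4 over the alternatives, 1 without either control array in turn. The counts for the lists were added after the data were seen. Low signal limits Nlgn1, Nlgn2 and the dimmest Nrxn2 probe set, which lay within background.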
